A study of Caenorhabditis elegans with 2 samples.

Results

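The genes described here are 10 loci of the cytosolic heat shock system of Caenorhabditis elegans, out of 19973 protein-coding nuclear genes, and the measurement is where the transcription factor subunit NFYA-1 was found on them. They were chosen by name: 4 chaperone or regulator genes used here as constitutive (hsp-90, hsp-110, hsp-1 and hsf-1), 5 heat-inducible chaperone genes (hsp-70, hsp-16.1, hsp-16.2, hsp-16.41 and hsp-16.48), and C47E8.4, the gene that starts beside the strongest hsp-90 peak. For each gene, every peak summit from 2 kb upstream of the annotated start to the gene end was taken, so the presence of a summit is part of how the loci are described and is not tested. The animals were whole L3 hermaphrodite larvae of strain OP404, genotype unc-119(tm4063) III; wgIs404, in which an integrated transgene makes NFYA-1 tagged with GFP-FLAG at its C terminus, and binding was read by chromatin immunoprecipitation sequencing. Sonicated chromatin was precipitated with an anti-GFP antibody, giving 2 libraries that the labels call biological replicates, all in 1 group. No heat treatment is named in the labels, so heat-inducible is a property of the genes and not a condition of the animals. Whole animals were used, so a summit cannot be assigned to a cell type. No untagged library was analysed here, and with 1 group there was no comparison between conditions and no p-value.

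NF-Y is a trimeric factor whose A subunit reads the CCAAT box, a promoter element found at many housekeeping genes. Heat shock factor HSF-1 is the main activator of chaperone genes under protein-folding stress, and it binds the heat shock element, which is made of alternating TTC and GAA units. HSP90, HSP70 and HSP110 proteins fold and refold clients in an ATP-driven cycle, while small heat shock proteins such as the HSP-16 family hold unfolded proteins until the ATP-driven machines take over.

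The sequences below carry the contrast between the loci, with every match to CCAAT, to the 8-base heat shock element (TTCNNGAA or GAANNTTC) and to GAGAGA in capitals, on either strand. The first 4 are centred on a summit from the authors' list of reproducible peaks, filtered by irreproducible discovery rate (IDR), and reach 50 bp to each side. The last 2 are the divergent intervals between paired hsp-16 genes, the first whole and the second cut to 300 bp next to hsp-16.48. All are from the RefSeq WBcel235 genome, 5′ to 3′ on the plus strand except hsp-110, which is on the minus strand with its gene, and all lie outside annotated UTRs and coding exons. The hsp-90 summit (chrV:14685743-14685843) has CCAAT between a pair of heat shock elements. The hsp-110 summit (chrIII:8447091-8447191) has no CCAAT but an unbroken run of 3 alternating heat shock units at its centre. The hsp-1 summit (chrIV:17278502-17278602) has neither in the window, but a GA repeat read on the other strand. A heat shock element lies just past the window, 53 to 60 bp from the hsp-1 summit. At the hsp-16.2 and hsp-16.41 summit (chrV:1805073-1805173) no motif lies wholly inside the window. The interval around it (chrV:1804958-1805177) has heat shock elements toward both ends, whereas the hsp-16.1 to hsp-16.48 interval (chrV:9087831-9088130) has them and CCAAT as well.
hsp-90 and C47E8.4 summit: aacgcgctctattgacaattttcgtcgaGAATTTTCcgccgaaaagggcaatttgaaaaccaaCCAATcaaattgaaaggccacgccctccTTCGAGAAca
hsp-110 summit: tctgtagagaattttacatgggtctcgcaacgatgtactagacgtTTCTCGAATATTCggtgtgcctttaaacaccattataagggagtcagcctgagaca
hsp-1 summit: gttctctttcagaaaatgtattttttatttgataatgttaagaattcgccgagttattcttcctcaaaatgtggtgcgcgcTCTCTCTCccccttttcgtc
hsp-16.2 and hsp-16.41 summit: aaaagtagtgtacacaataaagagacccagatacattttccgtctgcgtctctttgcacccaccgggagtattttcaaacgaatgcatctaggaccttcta
hsp-16.2 to hsp-16.41 interval: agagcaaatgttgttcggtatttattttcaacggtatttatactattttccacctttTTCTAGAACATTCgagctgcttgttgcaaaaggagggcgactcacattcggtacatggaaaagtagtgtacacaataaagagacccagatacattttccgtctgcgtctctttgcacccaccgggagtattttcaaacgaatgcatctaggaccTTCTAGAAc
hsp-16.1 to hsp-16.48 interval: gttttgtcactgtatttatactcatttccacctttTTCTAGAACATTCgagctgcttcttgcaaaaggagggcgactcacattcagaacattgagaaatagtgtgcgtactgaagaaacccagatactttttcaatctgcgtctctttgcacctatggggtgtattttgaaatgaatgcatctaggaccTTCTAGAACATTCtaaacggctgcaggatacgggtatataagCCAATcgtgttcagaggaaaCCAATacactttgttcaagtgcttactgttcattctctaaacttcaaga

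Summit positions came from 4 lists on the ce11 build: the IDR list of 6932 peaks, and 3 relaxed lists of 30000 regions each, 1 per replicate and 1 on both replicates pooled. The signal of a region is the authors' own value and is compared only within a list, mostly as a rank in which 1 is the strongest. Signals ran from 53.5 to 12400.7 with a median of 121.0 in the IDR list. They ran from 6.2 to 6746.9 in replicate 1 and from 3.8 to 5683.0 in replicate 2. Read depth is unknown from these lists, so no counting interval can be given, and the agreement of the replicates is the only measure of error.

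An IDR summit lay in the window of 9 of the 10 genes, beside 29.0% (5798) of all protein-coding genes by the same rule. All 4 constitutive genes and 4 of the 5 heat-inducible genes had one, so the classes are not told apart by presence. The exception was hsp-16.48. Counting only summits with no nearer protein-coding start left 5 genes (hsp-1, hsf-1, hsp-70, hsp-16.41 and C47E8.4), beside 20.6% of all genes. In the promoter window, from 500 bp upstream to 200 bp downstream of the start, the count was 7 of 10 genes, beside 15.6% (3122) of all genes. The genes without one there were hsp-90, hsp-16.1 and hsp-16.48. With RefSeq gene starts, which place hsp-90 further downstream, the count was again 7 beside 15.6% of all genes, now with hsp-90 counted and hsf-1 not. In the pooled relaxed list all 10 genes had a summit, beside 49.4% (9859) of all genes. That of hsp-16.48 was weak, with a rank of 15787 and a −log10 q of 0.71. Since genes share summits, the 9 genes rested on 13 distinct IDR summits, of which 6 were in the stronger 3466 of the list.

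The strongest summits ordered the loci as hsp-90 with C47E8.4 at rank 6, hsp-110 at 168, hsp-1 at 454, the hsp-16.2 and hsp-16.41 pair at 1382, hsp-70 at 1793, hsp-16.1 at 3695 and hsf-1 at 3787. The 3 constitutive chaperone genes stood above every heat-inducible gene of the set, while hsf-1 stood below them. The hsp-90 and hsp-110 summits, however, lie nearer to the starts of C47E8.4 and rpn-3. Within the IDR list the hsp-90 signal was 8.58 times that of hsp-110. The ratio was 8.13 in replicate 1 and 9.31 in replicate 2. Against the hsp-16.2 and hsp-16.41 summit it was 24.5 in the IDR list, 21.7 in replicate 1 and 31.9 in replicate 2. Both replicates thus gave the same order down to hsp-70, with ranks of 6, 153, 409, 1172 and 1534 in replicate 1 and of 8, 199, 571, 2046 and 2144 in replicate 2. The neighbours hsp-16.2 with hsp-16.41 and hsp-70 were 98 ranks apart in replicate 2 and 362 apart in replicate 1, which is less than the change of either summit between the replicates. The last pair, hsp-16.1 and hsf-1, changed places between the lists, at 3911 and 3688 in replicate 1 and at 3888 and 3511 in replicate 2, so their order does not hold. In replicate 1 the hsf-1 rank of 3688 is that of its summit at -1925 bp. The summit nearer the start, at -47 bp, had a rank of 3891 there.

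**Figure D1:**
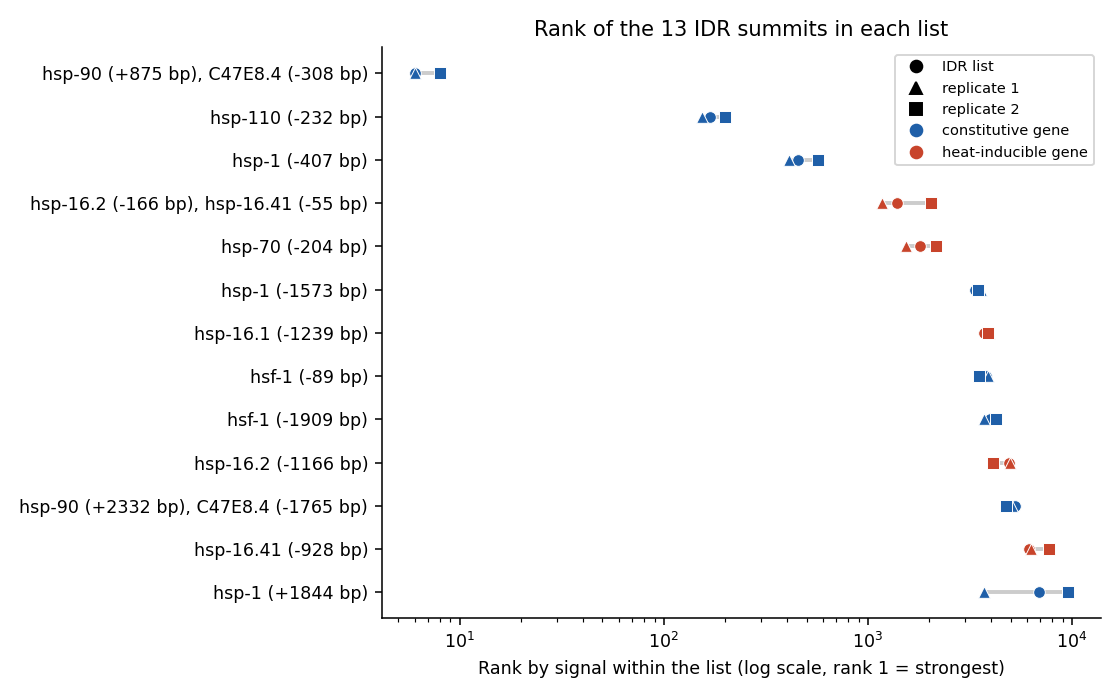
Rank by signal of the 13 IDR summits in the IDR list (circles) and of the strongest overlapping region in replicate 1 (triangles) and replicate 2 (squares), on a log axis where 1 is the strongest; labels give the offset from the Ensembl start, blue marks constitutive and red heat-inducible genes. The strongest summits of hsp-90, hsp-110 and hsp-1 lead in all 3 lists. The hsp-1 summit at +1844 bp spreads most, from rank 3690 to 9591, but the replicate 2 region there has its summit 348 bp away.

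All 13 IDR summits overlapped a region of both replicates by at least 1 bp. A replicate summit lay within 100 bp in both replicates for 12 of them, and 11 were among the top 6932 regions of both. The one without a close summit was hsp-1 at +1844 bp, at rank 6890 with a signal of 54.0, just inside the threshold. In replicate 1 it matched at +1845 bp (rank 3690, signal 66.7). In replicate 2 the strongest overlapping region had its summit at +1496 bp (rank 9591, signal 16.8), and a weaker one lay at +1695 bp (rank 14095, signal 10.6). Among the members' summits, the first outside the threshold was one of hsp-90 at +2554 bp, with a pooled signal of 50.5 and rank 7216, while the weakest IDR peak of all had 53.5.

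hsp-90 encodes the cytosolic HSP90 chaperone, which matures kinases and receptors and keeps HSF-1 inactive in other animals. Its strongest summit was at V:14685793, in a region of 500 bp (14685552 to 14686051), with signals of 5920.2 in the IDR list, 3337.1 in replicate 1 and 2601.5 in replicate 2. The replicate 1 summit was 12 bp away and the replicate 2 summit was at the same base. Only 0.0721% of the IDR peaks were stronger. The position in the gene depends on the annotation. Ensembl has a longer hsp-90 transcript from 14684918 whose first exon ends at 14685043, and the summit is at +875 bp in the first intron of 1116 bp. A shorter transcript, the only one in RefSeq, starts at 14686160, which is 1242 bp further in, and the summit is 367 bp upstream of it. Both transcripts have the same start codon, at 14686164.

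C47E8.4 runs the other way from 14685485, and the same summit is 308 bp upstream of its start. The interval between that start and the shorter hsp-90 start is 674 bp, so this peak is intronic to the longer transcript and lies in a divergent promoter by the shorter one. Which gene, or whether both, are regulated from it was not tested. Near the Ensembl start of the longer hsp-90 transcript no IDR or pooled summit was found within 500 bp upstream or 200 bp downstream. Replicate 1 alone had a weak region there, at -130 bp with a rank of 14277 and a signal of 14.8. That distal start has 2 runs of 3 heat shock units in its promoter and 1 CCAAT, at -171 bp.

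**Figure D2:**
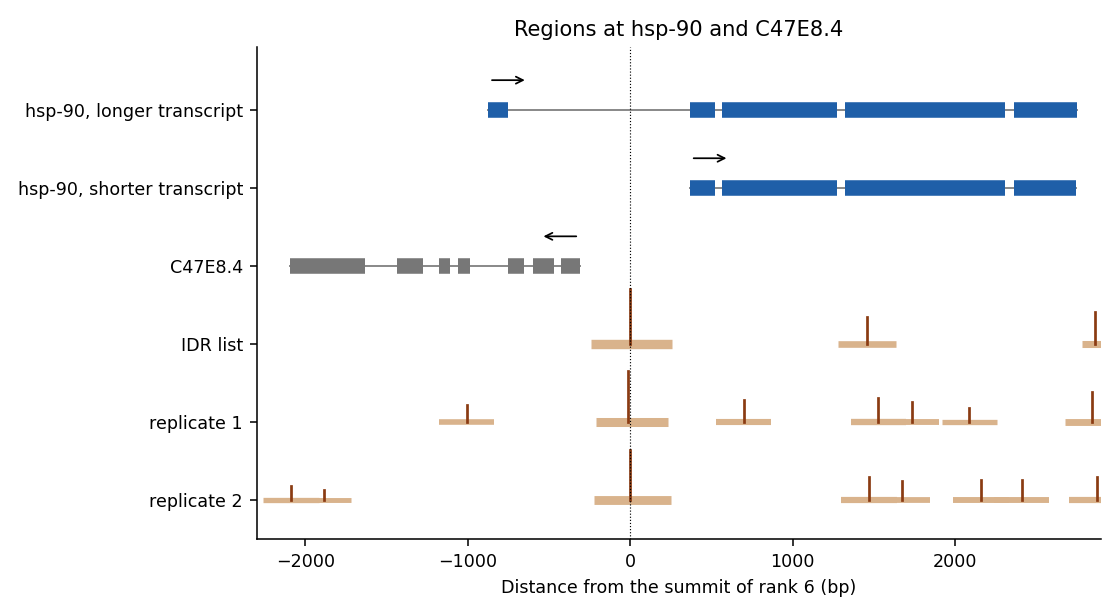
Transcripts of hsp-90 and C47E8.4 (thick bars are exons, arrows show direction) above the regions of the IDR list and both replicates, by distance in bp from the summit of rank 6; vertical ticks mark summits, with height and bar thickness rising with log10 signal. The strongest region lies in the first intron of the longer hsp-90 transcript, 308 bp from the C47E8.4 start and 367 bp from the shorter hsp-90 start. Weaker summits lie over the coding exons and just past the gene end.

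Over the rest of hsp-90 the summits were far weaker. The second IDR summit, at 14687250 and +2332 bp in a coding exon, had a rank of 5230 and a signal of 75.8. Replicate 1 gave 46.9 at 70 bp from it and replicate 2 gave 38.2 at 14 bp from it. The intronic signal was thus 78.1 times that of the next summit in the pooled list, 71.2 times in replicate 1 and 68.1 times in replicate 2. It contrasts with hsf-1, where the 2 strongest summits differed by 1.05 times in the pooled list, 1.05 in replicate 1 and 1.21 in replicate 2.

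hsp-110 encodes the HSP110 chaperone, a nucleotide exchange factor of HSP70 that works with it in disaggregation. Its IDR summit was at III:8447141 (region 8446960 to 8447287), 232 bp upstream of the start. The signals were 690.4 in the IDR list, 410.7 in replicate 1 at the same base, and 279.5 in replicate 2 at 16 bp from it. The start of the proteasome subunit gene rpn-3 is nearer, at 212 bp, and the noncoding RNA gene C30C11.14 starts 46 bp away, so the summit cannot be given to hsp-110 alone. Another 8 pooled relaxed summits lay along its body, all in coding exons and none in the IDR list, at ranks from 8251 to 19573. The promoter summit was 13.3 times the next in replicate 1 and 7.6 times in replicate 2.

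hsp-1 encodes the constitutive HSC70 chaperone. Its strongest summit was at IV:17278552 (region 17278376 to 17278719), intergenic and 407 bp upstream, with signals of 458.0 in the IDR list, 272.4 in replicate 1 and 178.3 in replicate 2. The replicate summits were within 1 and 8 bp of it. The noncoding RNA gene F26D10.23 starts 139 bp away. A second summit, at -1573 bp, was in an intron of clec-196, whose start is nearer (430 bp), and had a rank of 3362 in the IDR list, 3591 in replicate 1 and 3459 in replicate 2. The third, at +1844 bp in a coding exon, is the weakly matched one above.

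hsf-1 encodes the heat shock factor itself. It had IDR summits at I:11963174, with signals of 111.2, 63.6 and 52.4 in the IDR list, replicate 1 and replicate 2, and at I:11964994, with 105.7, 66.7 and 43.2 in the same lists. The first is 89 bp upstream of the Ensembl start and the second 1909 bp upstream, and neither is stronger than the other in both replicates. RefSeq starts hsf-1 at 11961984, 1101 bp further in, which puts the first summit 1190 bp upstream of that start. Both annotated transcripts share a start codon, so as at hsp-90 the annotated start decides whether the peak counts as a promoter peak.

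hsp-70 (C12C8.1) encodes a heat-inducible HSP70. Its only IDR summit was at I:9322723 (region 9322677 to 9322800), 204 bp upstream and inside an intron of uggt-2. The signals were 206.4 in the IDR list, 131.5 in replicate 1 at 19 bp from it and 79.5 in replicate 2 at 41 bp from it. In each replicate the matching summit was nearer to hsp-70, at -185 and -163 bp. No other protein-coding start was nearer. A further 4 pooled relaxed summits were in its coding sequence, none of them in the IDR list, with signals of 9.4 to 47.7.

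**Figure D3:**
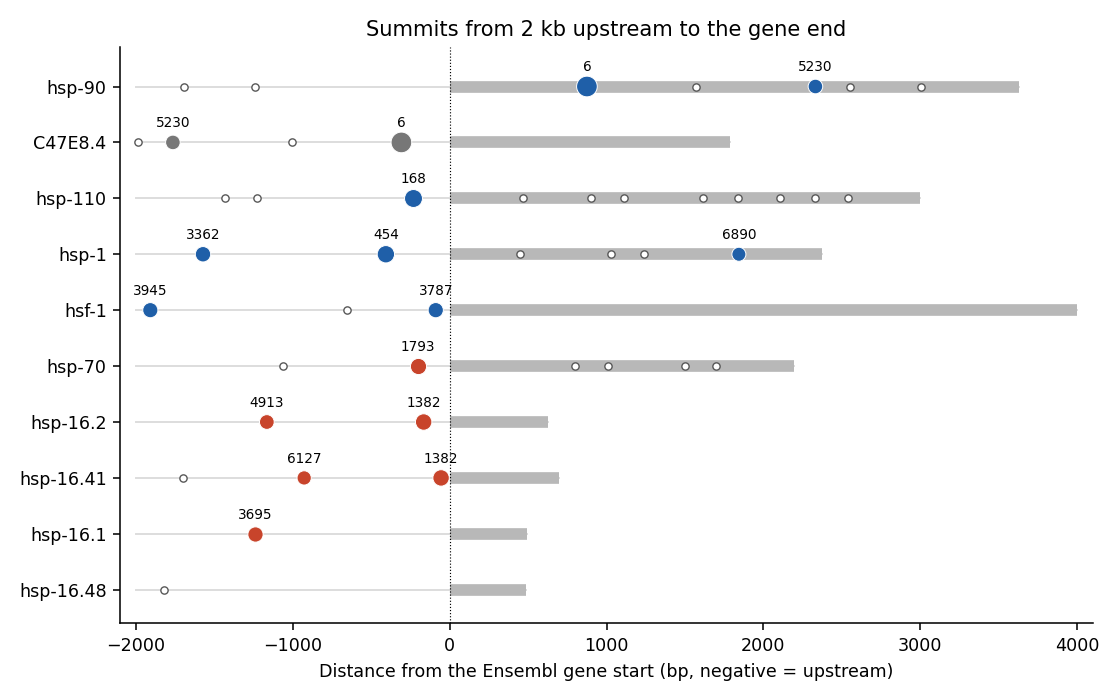
Summits by distance in bp from the Ensembl gene start, with the gene as a grey bar (that of hsf-1 is cut off at the right edge); filled points are IDR summits with their rank, larger for stronger signal, and open points are summits of the pooled relaxed list that did not pass IDR. IDR summits at C47E8.4, hsp-110, hsp-1, hsf-1, hsp-70, hsp-16.2 and hsp-16.41 lie within 500 bp upstream of the start, while hsp-90 has its strongest in the gene and hsp-16.48 has none.

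hsp-16.2 and hsp-16.41 encode small heat shock proteins and start back to back, 220 bp apart. They shared a summit at V:1805123 (region 1805011 to 1805236), 166 bp upstream of hsp-16.2 and 55 bp upstream of hsp-16.41. The signals were 241.8 in the IDR list, 153.8 in replicate 1 at 39 bp from it and 81.5 in replicate 2 at 26 bp from it. Both replicate summits lay on the hsp-16.2 side of the IDR summit, nearer the middle of the interval. Each gene also had an IDR summit past the far end of its partner: at 1806123 (-1166 bp from hsp-16.2, rank 4913) and at 1804250 (-928 bp from hsp-16.41, rank 6127). They are nearer to the partner's start in each case, 945 bp from that of hsp-16.41 and 707 bp from that of hsp-16.2.

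hsp-16.1 and hsp-16.48 form the other divergent pair, and its 348 bp interval (V:9087783 to 9088130) had no summit and no overlapping region in any of the 4 lists. Ensembl gives each of these symbols to a pair of genes, and RefSeq names the second copies hsp-16.11 and hsp-16.49. The copies form an inverted repeat with arms of 1881 bp (9086861 to 9088741 and 9089156 to 9091036) that are 100% identical, around a spacer of 414 bp. There were 0 summits in the arms in each of the 4 lists and 1 in the spacer in each. That spacer summit, at 9089021, is the IDR summit assigned to hsp-16.1 at -1239 bp, with signals of 113.8, 63.2 and 47.5 in the IDR list, replicate 1 and replicate 2. It is 404 bp past the end of hsp-16.48 and 259 bp past the end of hsp-16.49, whose starts, at 890 and 745 bp, are both nearer to it than that of hsp-16.1.

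Of the 36-base words in the hsp-16.1 to hsp-16.48 interval 0% occurred once in the genome, and the same held for 50-base words and for the whole of hsp-16.1, hsp-16.48, hsp-16.11 and hsp-16.49. In the hsp-16.2 to hsp-16.41 interval 100% did, and in the 13 member IDR regions 97.8% to 100% of 36-base words did. The sources used here give neither the read length nor the handling of reads that map to several places, so the lack of summits in the arms is not a measurement of no binding, and the part of repeated sequence in it was not tested. For hsp-16.48 the lists held 1 summit each outside the IDR list, far upstream at -1819 bp in the pooled list (rank 15787), -1781 bp in replicate 1 (rank 8690) and -1935 bp in replicate 2 (rank 11444).

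**Figure D4:**
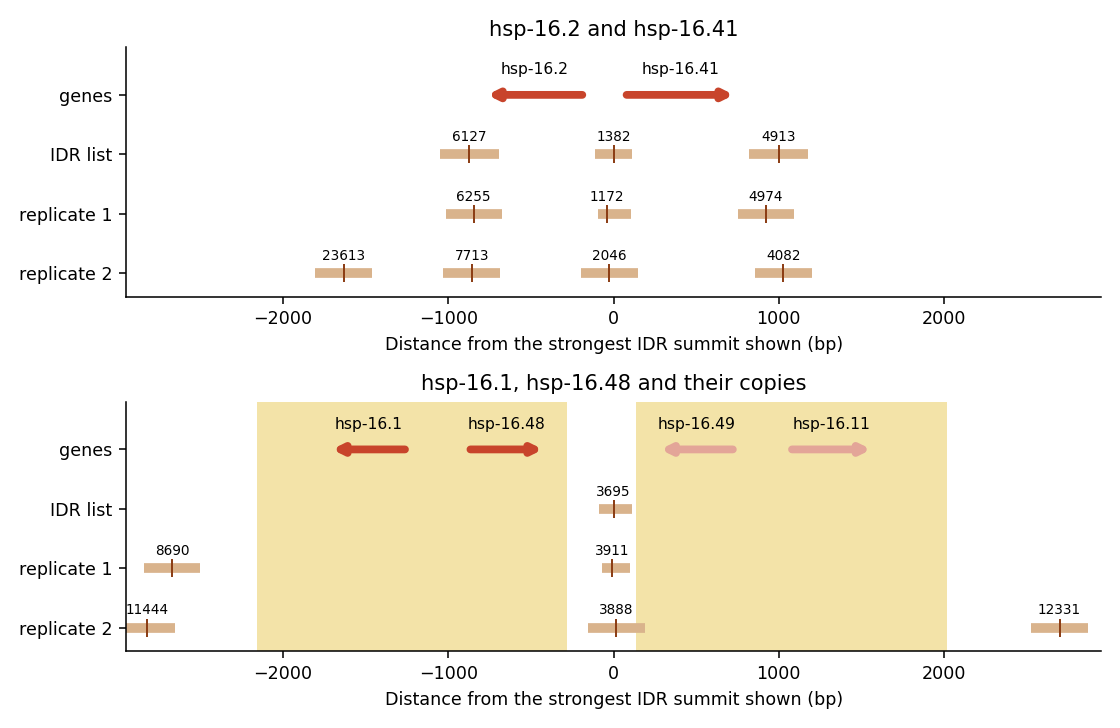
Genes (arrows), regions (bars), summits (ticks) and ranks in the IDR list and both replicates at the 2 hsp-16 loci, by distance in bp from the strongest IDR summit at each; yellow marks the identical arms of the inverted repeat and pale arrows the second copies. All 3 lists have a summit between hsp-16.2 and hsp-16.41, whereas at the repeated locus all 3 have a summit in the spacer, the replicates have others beyond the arms, and none lies inside the arms.

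CCAAT occurred within 50 bp of 5 of the 13 IDR summits (38.5%), beside 27.6% of all IDR summits and 45.5% of promoters of 300 bp (250 before to 50 after the start). A promoter window is longer than a summit window, which reaches only 50 bp to each side. For any motif, a lower share at summits than in promoters therefore does not show that it is rarer at summits. The 5 summits with CCAAT were the rank 6 summit of hsp-90, hsp-1 at -1573 bp and at +1844 bp, hsf-1 at -89 bp and hsp-16.41 at -928 bp. Of the 6 strongest by rank, only the hsp-90 summit and hsp-1 at -1573 bp had it. The 13 summits are too few to show whether CCAAT follows signal. Over the whole IDR list, CCAAT was at 31.3% of the stronger 3466 summits and at 27.6% of all. The longer form, with a pair of purines before CCAAT and then C or G and a purine, was found only at the hsp-90 summit, 11 to 19 bp from it, beside 11.1% of all IDR summits and 2.53% of promoters. That region also shares a 20-base word with 3 other IDR peaks.

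Heat shock elements occurred within 50 bp of 4 of the 13 summits, beside 5.90% of all IDR summits and 32.5% of promoters, whose windows are longer. They were both hsp-90 summits, hsp-110 and hsp-70. At hsp-90 the elements began 22 bp before and 41 bp after the summit, on either side of the CCAAT at 13 to 17 bp. The run of 3 alternating units spanned the hsp-110 summit, from -7 to 5 bp, and such a run was found at 23 (0.332%) of all IDR summits and in 1.97% of promoters. It lay 46 to 58 bp from the hsp-16.2 and hsp-16.41 summit, past the edge of the window. Single elements also lay past the edge at hsp-1 at -407 bp (53 to 60 bp) and at hsp-16.41 at -928 bp (62 to 69 bp). Any run of 3 units also counts as 2 overlapping 8-base elements.

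The members' promoters were taken from 250 bp before to 50 bp after the Ensembl start. These windows are longer than the summit windows and partly overlap them, so the counts of the 2 cannot be set against each other. A run of 3 heat shock units lay in 8 of the 10 promoters, beside 1.97% of all promoters, and hsf-1 and C47E8.4 had none. The hsp-110 promoter includes the run at its summit. Runs between divergent hsp-16 genes can count for both genes of a pair, so the 8 promoters are not independent. At the shorter start of hsp-90 there was 1 heat shock element, no such run and no CCAAT. Of the 10 promoters 4 held CCAAT, those of hsp-90, hsf-1, hsp-16.48 and C47E8.4. The hsp-16.1 to hsp-16.48 interval held 2 CCAAT, 1 of them in the longer form, and 4 heat shock elements. The hsp-16.2 to hsp-16.41 interval held 0 CCAAT and 3 heat shock elements, with another crossing the hsp-16.41 start. Only the second interval had a summit, but 0% of the 36-base words of the first occur once in the genome. The lack of a summit there is thus not a measurement of no binding. GAGAGA was within 50 bp of 2 summits, hsp-1 at -407 bp and hsf-1 at -89 bp, beside 28.4% of all IDR summits and 21.8% of promoters. A match to these letters does not show that a factor is bound through it.

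**Figure D5:**
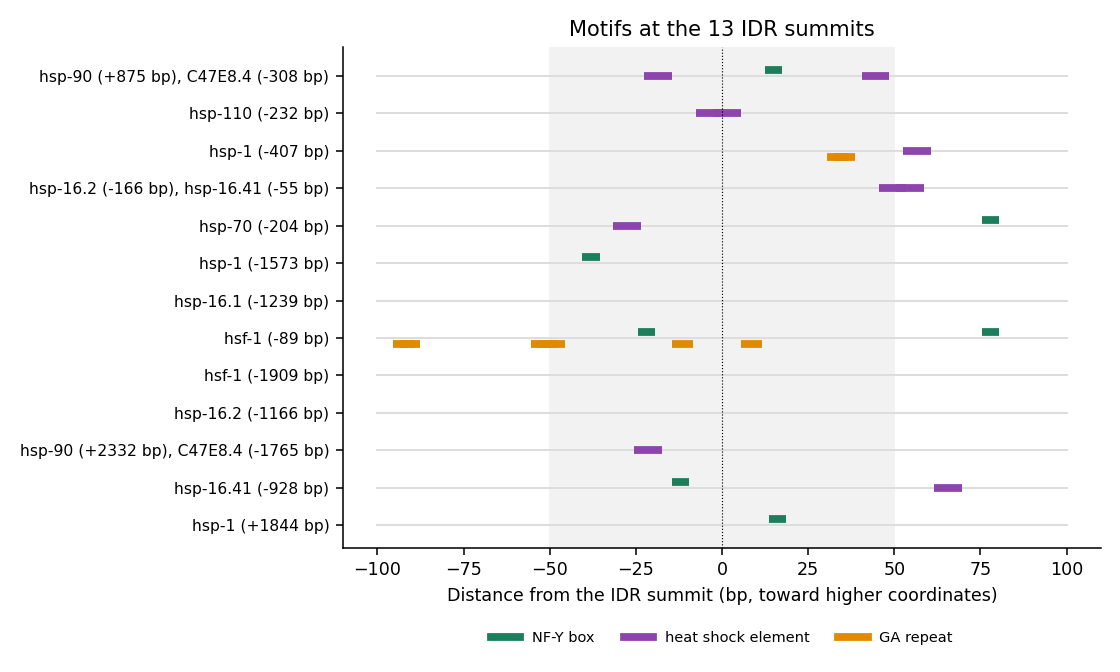
Position of CCAAT (NF-Y box, green), heat shock elements (purple) and GAGAGA (GA repeat, orange) within 100 bp of each of the 13 IDR summits, strongest at the top, with the 50 bp window shaded. Heat shock elements lie in the window at hsp-90, hsp-110 and hsp-70, and the hsp-16.2 and hsp-16.41 summit has none of the motifs wholly inside it.

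Relaxed summits over gene bodies were dense at the HSP70-type and HSP90 genes. The pooled relaxed list is labelled as peaks and background, and 7453 of its 30000 regions reached the highest −log10 q, 4.17. No pooled body summit of hsp-110 or hsp-70 reached it, while some of hsp-90 and hsp-1 did. The −log10 q of the body summits ran from 0.43 to 3.10 at hsp-110 and from 0.18 to 3.70 at hsp-70. Counting pooled relaxed summits beyond the first 200 bp, hsp-110 had 2.86 per kb, hsp-70 2.01, hsp-1 1.84 and hsp-90 1.46, the intronic summit included, or 1.83 from the RefSeq start. The median over 16322 genes of at least 1000 bp was 0, and 0.0184%, 0.343%, 0.515% and 1.46% of them were at least as dense as the 4 genes in that order. For hsp-110 the density was 1.79 in replicate 1 and 2.14 in replicate 2, and 0.631% and 0.251% of genes were at least as dense. For hsp-70 it was 2.01 in both, with 0.368% of genes, so hsp-110 was the denser of these in replicate 2 and the pooled list but not in replicate 1. For hsp-1 it was 1.38 and 1.84, with 1.80% and 0.582% of genes, and for hsp-90 it was 1.46 in both, with 1.48% and 1.49%. hsf-1 had 0 in the pooled list and 0.107 in replicate 1, and C47E8.4 had 0 in the pooled list, 0.63 in replicate 1 and 1.26 in replicate 2. Of the 13 IDR summits 2 were in coding exons, beside 1.73% of all IDR summits. The 13 were taken from gene windows and the full list was not, so the shares are not like for like. RNA levels and an untagged control were not analysed here, so whether these weak summits move with transcription was not tested.

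Of 27 other genes of the pathway, 14 had an IDR summit in the same window (51.9%), beside 29.0% of all protein-coding genes, and 11 had one in the promoter window, beside 15.6%. By role, the genes with a summit in the first window were 8 of 10 co-chaperones, both heat-inducible HSP70 genes, 3 of 12 small heat shock proteins and 1 of 3 regulators of HSF-1. Among those co-chaperones, the strongest summits of daf-41, ahsa-1, pph-5 and fkb-6 lay nearer to the start of another gene. So did those of sip-1, ddl-1, F44E5.5 and hsp-16.11. The counts therefore do not assign the summits to the pathway genes. The share of the small heat shock proteins was near that of all genes. The best ranked was bag-1, an HSP70 nucleotide exchange factor, at rank 436 (446 in replicate 1 and 414 in replicate 2) and -176 bp. Next were F44E5.4 and F44E5.5, a divergent pair of heat-inducible HSP70 genes with a shared summit at II:11759483 and rank 556, at -172 bp from the first and -179 bp from the second. Its ranks were 311 in replicate 1 and 1515 in replicate 2, a wider spread than at bag-1. sti-1, which links HSP70 to HSP90, followed at rank 602 (640 and 549) and -82 bp. A further heat-inducible gene, hsp-16.11, had only the rank 3695 summit of the spacer, at -1056 bp.

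The F44E5.4 and F44E5.5 summit had 3 heat shock elements within 50 bp, including 2 runs of 3 units, and no CCAAT. These genes are near-copies, with 1.84% and 2.08% of 36-base words found once in the genome, but the interval between them is not, with 86.7%. In the IDR list its rank of 556 was below the 454 of hsp-1 and above those of the 4 heat-inducible members that have an IDR summit. Replicate 2 kept that order and replicate 1 did not. In replicate 1 its rank of 311 was above the 409 of hsp-1, and in replicate 2 its rank of 1515 was below the 571 of hsp-1. Once these genes are counted, only hsp-90 and hsp-110 of the constitutive genes ranked above every heat-inducible gene named here in all 3 lists.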

How the data were processed

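NFYA-1 ChIP-seq peak lists of 2 replicates in 1 group were used. The authors deposited narrowPeak lists whose signal column is in a scale that is not stated and whose −log10 q column stops at a ceiling (4.17, or 4.26 in replicate 2), which all IDR peaks reach. Per the deposited file descriptions, the relaxed lists were called against a control and the IDR list came from them. The sources used here do not give the aligner, caller or depth. The ce10 lists were not used. Only ranks, ratios within a list and counts were computed, with no test.

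A summit is the region start plus the peak offset, 1-based. Gene models were Ensembl release 115 for WBcel235, with RefSeq models as an alternative added after seeing the data, and sequence was RefSeq WBcel235. A replicate match is the strongest region overlapping by at least 1 bp. Both strands were searched for motifs within 50 bp of a summit. Window and motif searches were tested on simulated data. The members and lists were chosen with earlier results of these data known. All 10 members are named, and of the 27 pathway genes the 3 best ranked and any other heat-inducible one with an IDR summit. Pathway genes whose strongest summit is nearer to another gene's start are also named. A neighbour is named where its start is nearer to a member's summit. The count of best-ranked genes takes F44E5.4 and F44E5.5 as 1 summit. Python 3.11.15, numpy 2.4.6, pandas 2.3.3 and matplotlib 3.10.9 were used.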

Additional observations from a re-analysis of the deposited data

How the results depend on the processing

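The count of 9 members with an IDR summit was 8 with 1 kb or 500 bp upstream, 7 in the promoter window, 7 in the stronger 3466 peaks, 10 in the pooled relaxed list and 9 with RefSeq models, which were chosen after seeing the data. Leaving out a replicate, so that the strongest 6932 regions of the remaining one were used, kept 9 members (range 9 to 9), 4 constitutive genes (4 to 4) and 4 heat-inducible genes (4 to 4), and the share of all genes was 29.1% to 29.3%. Counting only summits with no nearer protein-coding start left 5 members, 2 constitutive and 2 heat-inducible genes, with 20.6% of all genes. The share of all genes was 24.4% with 1 kb, 21.1% with 500 bp, 15.6% in the promoter window, 18.5% in the stronger 3466 and 49.4% in the pooled relaxed list, against 29.0%. Matches in both replicates were 13 of 13 at any overlap or an overlap of most of the interval, 12 by summit distance and 11 in the top regions. CCAAT was at 4 summits within 25 bp, 6 within 100 bp, 1 in the longer form and 2 in the stronger 3466 peaks, against 5. No paired analysis was possible because there is 1 group. Unknown depth, the lack of an untagged library and identical sequence at hsp-16.1 and hsp-16.48 limit what a missing summit shows.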
